A study of Bos taurus with 138 samples.

Results

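The transcripts described here encode the cap-binding eIF4E proteins, their eIF4E-binding repressors and the eIF4G scaffolds. Members were chosen by gene symbol in the deposited count table, and all 9 symbols were present among its 16706 genes: EIF4E, EIF4E1B, EIF4E2, EIF4E3, EIF4EBP1, EIF4EBP2, EIF4G1, EIF4G2 and EIF4G3. Bovine oocytes before maturation, with an intact germinal vesicle (GV), and after it, arrested at metaphase II (MII), and in vitro produced embryos at the 2-cell, 8-cell, morula and blastocyst stages were lysed after cycloheximide treatment, which holds ribosomes on the mRNA. Each lysate was separated on a sucrose gradient into 10 fractions, from free RNA (F1 and F2) over monosomes (F3 to F5) and an intermediate zone (F6 and F7) to polysomes (F8 to F10), with 2 gradients (A and B) per stage and 120 fraction libraries in all. Whole-cell transcriptomes of the same stages were sequenced in 3 replicates each (A, B and C), 18 libraries in all. No genetic or drug treatment separated the groups, the oocytes came from pooled slaughterhouse ovaries, the embryos were fathered by a single Holstein bull, and every library was made from a pool of cells, so a stage is represented by 1 source of semen and by pools rather than by single animals.

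Totals lay between 1229382 and 17342859 expected counts in fraction libraries and between 3269386 and 11812567 in transcriptomes. Levels are given as CPM, counts scaled to the library total with TMM factors, and for polysomes the counts of F8 to F10 were summed within a gradient. TMM factors were computed separately for transcriptomes with polysome pools, for heavy and light pools, and for all single libraries. The same pool or transcriptome can thus have somewhat different CPM in different comparisons. Each fraction was amplified on its own and no spike-in was used, so a CPM in a fraction is a share of the RNA in that fraction and not an amount, and in pools of cells fewer cells of a type and less RNA per cell cannot be told apart. Among the MII fractions the F10 library of gradient B stood apart, with 7396 genes detected against at least 10102 in the other 19 libraries. Its r to F10 of gradient A was 0.701, where the other MII fractions lay between 0.867 and 0.973. Some fractions of later stages agreed less well, with r of 0.666 for 8-cell F1, 0.662 for morula F9 and 0.666 for blastocyst F1. Morula F9 of gradient A had 5714 genes detected and blastocyst F1 of gradient B 4951. Blastocyst F8 to F10 had r of 0.891, 0.918 and 0.899. Of these libraries only MII F10 of gradient B was left out in a refit of its own. The summed level of 5 oocyte markers was between 17153 and 20222 CPM in GV transcriptomes and at most 101.7 CPM in blastocysts, and that of 5 trophectoderm markers was at most 51.2 CPM in GV oocytes and between 4736 and 5394 CPM in blastocysts. The highest sum of 3 sperm markers was 5.61 CPM. The sum of 8 cumulus or granulosa markers was between 1150.5 and 8199 CPM in 8-cell transcriptomes, with LUM alone at 1081 to 8105 CPM, against at most 414 CPM in the transcriptomes of the other stages. None of the 8 was at 0 in all 8-cell transcriptomes, but LUM held most of the sum there, so that sum mainly follows a single gene. The part of these marker transcripts in the 8-cell results below was not tested.

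Most eukaryotic mRNAs are translated after the eIF4F complex assembles on the cap at the 5′ end. In that complex eIF4E holds the cap, eIF4G is the scaffold that connects the cap to the small ribosomal subunit and to the poly(A) binding protein, and eIF4A unwinds the RNA. The 4E-BP proteins compete with eIF4G for eIF4E and let go of it once mTOR has phosphorylated them. EIF4E1B is a paralogue of EIF4E found mainly in oocytes, where it takes part in repressor complexes on stored maternal mRNAs, so the pair was followed side by side from stored to translated RNA. Transcript lengths were not used, so levels are compared between samples of a gene and not between genes.

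EIF4E, the general cap-binding subunit, was highest in oocyte transcriptomes and fell to blastocysts. Its level was 1791, 1855 and 2412 CPM in the GV replicates and 2250.0, 2198 and 2685 CPM in MII oocytes. It was 1461, 1617 and 1437 CPM at the 2-cell stage, and 1013, 1136 and 1021 CPM at the 8-cell stage. Morulae held 881, 900 and 1357 CPM, and blastocysts 263, 337 and 304 CPM. Ranked by mean, MII (2378 ± 267 CPM, SD, n = 3) stood above GV (2019 ± 341), 2-cell (1505 ± 97.7), 8-cell (1057 ± 69.0), morula (1046 ± 270) and blastocyst (301 ± 36.9). The MII and GV samples overlapped, and so did those of the 8-cell and morula stages, while the other neighbours in that order did not. EIF4E fell from MII to 2-cell by 0.66 on the log2 scale (SE 0.22, adjusted p = 0.0447, edgeR quasi-likelihood with Benjamini-Hochberg adjustment), a call lost in each of the 6 refits that left out a replicate of either stage. The change from 2-cell to 8-cell was −0.51 (adjusted p = 0.051, edgeR), and it passed in a fit of the 18 transcriptomes alone (−0.49, adjusted p = 0.0391, edgeR) and with DESeq2. It fell by 1.80 from morula to blastocyst (SE 0.22, adjusted p = 3.27e-06, edgeR). Between the 9 early (GV, MII and 2-cell) and the 9 late transcriptomes it fell by 1.48 (SE 0.13, adjusted p = 2.41e-10, edgeR), and the groups did not overlap.

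EIF4E1B showed a narrower pattern. Its level was 127, 138.2 and 109 CPM in GV oocytes, 54.0, 60.0 and 45.8 CPM in MII oocytes and 183, 197 and 281 CPM in 2-cell embryos. At the 8-cell stage it was 14.6, 34.9 and 34.1 CPM. Morulae had 10.9, 2.32 and 0.862 CPM and blastocysts 9.41, 0.621 and 1.001 CPM, which in 4 of these 6 libraries rested on 26, 8, 3 and 5 counts. The order by mean was therefore 2-cell (220.2 ± 53.0 CPM, SD, n = 3), GV (125 ± 14.6), MII (53.3 ± 7.14), 8-cell (27.8 ± 11.5), morula (4.70 ± 5.43) and blastocyst (3.68 ± 4.97), and of neighbours in that order only morula and blastocyst overlapped. EIF4E1B fell by 2.98 on the log2 scale from the 2-cell to the 8-cell stage (SE 1.01, adjusted p = 0.0165, edgeR). Without 8-cell transcriptome A the change was −2.67 with an adjusted p of 0.0683 (edgeR). The lower level in MII than in GV oocytes (log2 change −1.23, SE 0.95, adjusted p = 0.428) and the higher one at the 2-cell stage (2.05, SE 0.97, adjusted p = 0.197) did not pass the edgeR test, although the 3 replicates of each stage lay apart. In a fit of the 18 transcriptomes alone the 2-cell rise passed (2.03, adjusted p = 0.0038, edgeR), and so did the change from 8-cell to morula (−2.55, adjusted p = 0.000907, edgeR), which had an adjusted p of 0.0897 in the joint fit. From early to late transcriptomes EIF4E1B fell by 3.88 (SE 0.62, adjusted p = 5.92e-06, edgeR), with no overlap between the groups.

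**Figure D1:**
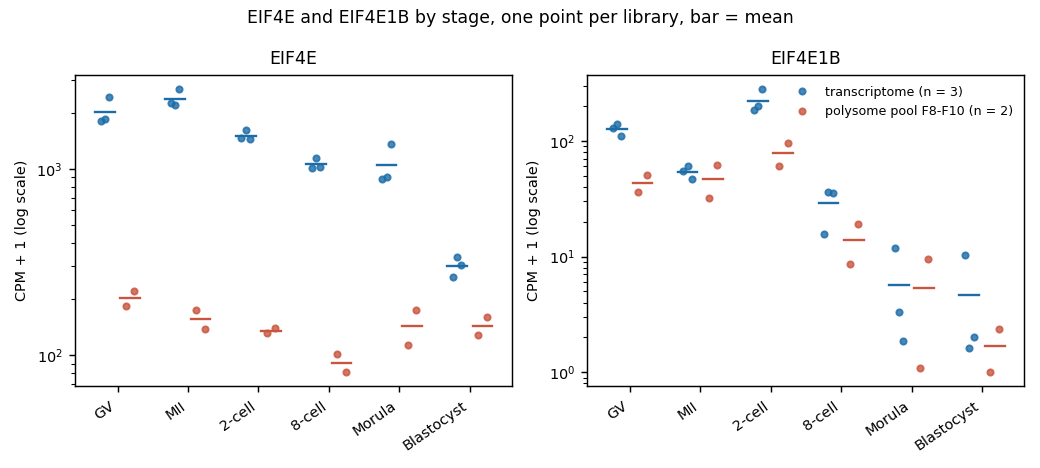
Level of EIF4E (left) and EIF4E1B (right) in CPM + 1 on a log axis at the 6 stages. Blue points are the 3 transcriptome replicates, red points the 2 polysome pools (F8 to F10), and bars are means. EIF4E transcriptomes run from 1791 to 2412 CPM in GV oocytes to between 263 and 337 CPM in blastocysts while its polysome pools stay between 80.2 and 220.4 CPM, and EIF4E1B peaks in 2-cell transcriptomes at 183 to 281 CPM.

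The EIF4E1B to EIF4E ratio was taken per library as log2 of (EIF4E1B CPM + 1)/(EIF4E CPM + 1), a value that compares libraries and has no meaning of its own at 0. In transcriptomes the mean ratio was −4.00 ± 0.39 (SD, n = 3) in GV oocytes and −5.46 ± 0.35 after maturation to MII, and 2-cell embryos had −2.79 ± 0.38. It was −5.29 ± 0.64 at the 8-cell stage, −7.93 ± 1.66 in morulae and −6.54 ± 1.64 in blastocysts. The 2-cell embryos had the highest ratios of all stages, between −3.03 and −2.35. The late transcriptomes lay 2.51 below the early ones on the log2 scale (exact permutation test of 9 against 9 libraries, two-sided, p = 0.00222). On average EIF4E1B thus lost more of its level than EIF4E did. Each side holds 3 replicates of each of its stages, and the test took all libraries as independent. Its p-value therefore does not measure the spread between stages. The MII mean of −5.46 lay below the 8-cell mean of −5.29, against the direction of the average. Late ratios ranged from −9.51 to −4.67 and early ones from −5.84 to −2.35, so the groups overlapped.

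EIF4E2 and EIF4E3 encode the other members of the eIF4E family. EIF4E2, also called 4EHP, binds the cap but does not join eIF4G in the usual initiation complex. Its transcriptome level was 117, 172 and 140 CPM in GV oocytes and 41.0, 46.9 and 39.8 CPM in MII oocytes. It was 52.5, 53.6 and 51.7 CPM in 2-cell embryos and rose to 113, 126 and 117 CPM at the 8-cell stage. The fall at maturation was 1.75 on the log2 scale (SE 0.30, adjusted p = 0.000109) and the rise to the 8-cell stage 1.17 (SE 0.29, adjusted p = 0.00174), both with edgeR. Morulae held between 135 and 152 CPM and blastocysts between 61.1 and 86.4 CPM, a log2 change of −0.94 (SE 0.29, adjusted p = 0.0198, edgeR). That last call was lost in 4 of 6 refits without a replicate. Estimated counts of EIF4E2 were not whole in 87.0% of the libraries, which is how reads shared between transcripts appear. The share was 37.7% for EIF4G2, 30.4% for EIF4E1B and 21.7% for EIF4E. These shares count libraries and do not measure how many reads were shared or how uncertain a level is.

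EIF4E3 was low until the morula, between 2.05 and 6.08 CPM in all 15 transcriptomes of the first 5 stages, and was 11.8, 24.2 and 17.2 CPM in blastocysts. The log2 change from morula to blastocyst was 2.45 (SE 0.72, adjusted p = 0.0149, edgeR), past the threshold in 3 of 6 refits that each left out a replicate. EIF4E3 was listed at 0 in 25 libraries, all of them fractions.

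EIF4EBP1, the best known 4E-BP, had 2 peaks in the transcriptome. It was 2.66, 1.85 and 2.03 CPM in GV oocytes, 5.72, 11.5 and 5.83 CPM in MII oocytes, and 2.43, 2.24 and 2.11 CPM at the 2-cell stage. At the 8-cell stage it was 48.7, 28.9 and 46.8 CPM. Morulae had between 30.5 and 41.1 CPM and blastocysts between 3.73 and 12.1 CPM. The 4 steps other than 8-cell to morula passed the edgeR test. The rise to the 8-cell stage was 18.3-fold (log2 4.19, SE 0.45, adjusted p = 4.45e-08, edgeR), and it and the falls after MII (−1.76) and after the morula (−2.23) kept their calls whichever replicate was left out. EIF4EBP2, another 4E-BP, went in small steps from a mean of 1.15 ± 0.35 CPM (SD, n = 3) in GV oocytes to 11.6 ± 1.202 CPM in blastocysts. No single step of it passed, while late against early was 1.97 (SE 0.60, adjusted p = 0.00543, edgeR).

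Of the eIF4G scaffolds, EIF4G1 encodes the main one. It was 5.69, 5.02 and 3.85 CPM in GV oocytes, 9.73, 11.6 and 7.49 CPM in MII oocytes and 15.1, 15.2 and 16.9 CPM at the 2-cell stage. It was 46.7, 70.2 and 88.0 CPM in 8-cell embryos, between 59.7 and 95.1 CPM in morulae and 18.5, 31.9 and 24.02 CPM in blastocysts. EIF4G1 rose by 2.12 on the log2 scale at the 8-cell stage (SE 0.40, adjusted p = 0.000131) and fell by 1.66 in blastocysts (SE 0.40, adjusted p = 0.00351), both with edgeR. EIF4G2, also called DAP5, lacks the part of eIF4G that binds eIF4E and serves initiation without it. Its transcriptome level was 276, 242 and 236 CPM in GV oocytes and 724, 628 and 569 CPM in MII oocytes, then 358, 467 and 368 CPM, and 1080.1, 1198 and 1023 CPM in 2-cell and 8-cell embryos. EIF4G2 rose at maturation (log2 1.35, SE 0.27, adjusted p = 0.00072) and at the 8-cell stage (1.47, SE 0.27, adjusted p = 9.15e-05), both with edgeR, and was between 1125 and 1714 CPM in blastocysts. Its rise from morula to blastocyst (0.77, adjusted p = 0.0374, edgeR) lost its call in 5 of 6 refits without a replicate. EIF4G3, another eIF4E-binding scaffold, differed between late and early transcriptomes by −0.02 on the log2 scale and did not pass in any step of the joint fit. In the fit of transcriptomes alone it was higher in MII than in GV oocytes (1.16, adjusted p = 0.00048, edgeR). Its means ranged from 28.99 ± 4.36 CPM (SD, n = 3) in GV oocytes to 64.8 ± 3.65 CPM in MII oocytes.

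**Figure D2:**
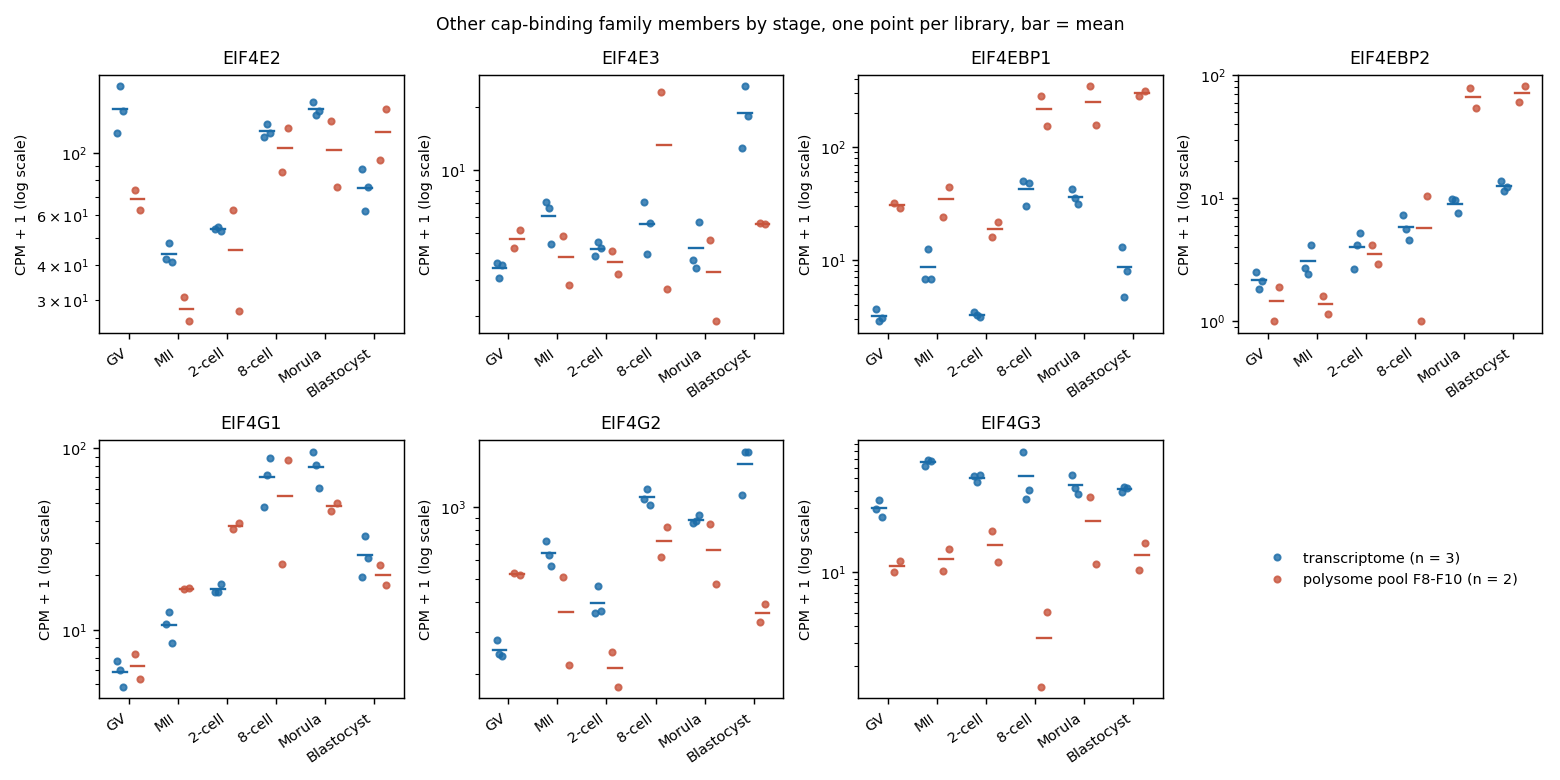
Levels of the other 7 genes in CPM + 1 on log axes, which differ between panels, at the 6 stages. Blue points are the 3 transcriptome replicates, red points the 2 polysome pools, and bars are means. EIF4EBP1 polysome pools lie above all transcriptomes at every stage, and EIF4EBP2 pools of morulae and blastocysts, at 53.4 to 80.3 CPM, lie above theirs.

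Counted over the 9 genes, 3 passed the edgeR test from GV to MII (EIF4E2, EIF4EBP1 and EIF4G2) where 18.6% of all 14612 tested genes did. From MII to 2-cell 2 passed (EIF4E and EIF4EBP1, against 13.1% of all genes), and from 2-cell to 8-cell 5 passed (52.3% of all genes), of which 4 were higher (27.7% of all genes) and 1 lower (24.6%). None passed from 8-cell to morula by edgeR (15.4% of all genes), where EIF4E1B had an unadjusted p under 0.05 and was called by DESeq2 and by the fit of transcriptomes alone. That fit kept the 16 calls of the 5 steps and added 8. Its share over all genes is not given and the percentages here belong to the joint fit, so the added calls have no background. From morula to blastocyst 6 passed (23.2% of all genes), of which 2 were higher (10.8%) and 4 lower (12.5%). Late against early, 6 members rose (36.4% of all genes) and 2 fell (34.1%), 8 calls where 70.4% of all genes passed. EIF4E3 was the least stable of those 8 (log2 0.92, adjusted p = 0.0436, edgeR), with its call lost in 13 of 18 refits without a transcriptome.

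In polysome pools EIF4E lay between 80.2 and 220.4 CPM. It was 184 and 220.4 CPM in gradients A and B of GV oocytes, 174 and 138.1 CPM in MII oocytes and 130.2 and 139 CPM in 2-cell embryos. The pools held 101 and 80.2 CPM at the 8-cell stage, 112 and 173 CPM in morulae and 128 and 160 CPM in blastocysts. EIF4E1B pools held 34.9 and 49.4 CPM in GV oocytes, 31.0 and 60.8 CPM in MII oocytes and 60.0 and 94.6 CPM in 2-cell embryos. They held 7.63 and 18.1 CPM at the 8-cell stage, 0.0964 and 8.51 CPM in morulae and 0 and 1.36 CPM in blastocysts. The 2-cell and 8-cell pools did not overlap. No step between consecutive stages passed for EIF4E or for EIF4E1B in polysomes. Among the other members, 1 passed from GV to MII (EIF4E2, −1.32, SE 0.36, adjusted p = 0.0284, edgeR, lost in 4 of 5 refits without a replicate), against 5.42% of all genes, and none from MII to 2-cell, against 8.64%. In that step 2 had an unadjusted p under 0.05, and DESeq2 called 0. From 2-cell to 8-cell 5 passed, against 47.3% of all genes. EIF4EBP1 rose from 14.8 and 20.5 to 280.3 and 152 CPM (log2 3.61, SE 0.52, adjusted p = 6.33e-06, edgeR), and EIF4G2 from 247 and 176 to 617 and 826 CPM (1.77, SE 0.33, adjusted p = 0.000167, edgeR). EIF4E2 rose by 1.23 (SE 0.36, adjusted p = 0.00692, edgeR), a call lost without 2-cell gradient B, where the value was 0.75, and without 8-cell gradient B. EIF4G3 fell from 19.3 and 10.95 to 0.410 and 4.09 CPM, by 2.73 on the log2 scale (SE 0.67, adjusted p = 0.0021, edgeR). The value was −1.88 without 8-cell gradient A and −5.18 without gradient B, both past the threshold, and −2.26 with F9 and F10 alone as the pool, which did not pass (adjusted p = 0.0668, edgeR). EIF4E3 passed too, but its value of 22.6 CPM in 8-cell gradient A stood against 1.71 CPM in gradient B, and without gradient A the log2 change was −0.62 in place of 2.20.

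From 8-cell to morula 3 members passed in polysomes, against 37% of all genes. EIF4G3 came back to 35.3 and 10.6 CPM (log2 3.33, SE 0.69, adjusted p = 0.000742, edgeR), with 2.21 to 5.78 in refits without a gradient, all past the threshold. EIF4EBP2 went from 0 and 9.49 to 77.2 and 53.4 CPM (3.78, SE 1.33, adjusted p = 0.0289, edgeR). Its adjusted p was 0.0602 without 8-cell gradient A, where it had no count, and 0.0722 without morula gradient A (edgeR). EIF4E3 was the other one, with −2.42, and without 8-cell gradient A the value was 0.40. With only F9 and F10 in the pool, the EIF4G3 change was 0.96 and did not pass. From morula to blastocyst none passed by edgeR, against 14.2% of all genes. In that step 2 members had an unadjusted p under 0.05, and DESeq2 called 1.

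Set against the transcriptome of the same stage, EIF4E was lower in polysome pools at all 6 stages. The log2 difference was −3.32 (SE 0.28) in GV oocytes, −3.93 (SE 0.29) in MII oocytes and −3.48 (SE 0.28) in 2-cell embryos. It was −3.55 (SE 0.28) at the 8-cell stage, −2.87 (SE 0.27) in morulae and −1.07 (SE 0.25) in blastocysts. The largest adjusted p was 0.00153, in blastocysts (edgeR), and pools and transcriptomes did not overlap at any stage. EIF4E1B was at lower means in the pools at all 6 stages, between −2.34 and −0.11 on the log2 scale, and none of these differences passed.

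EIF4EBP1 went the other way, with higher values in polysomes at all 6 stages. The log2 difference was 3.75 (SE 0.46) in GV oocytes, where transcriptomes held 1.85 to 2.66 CPM and the pools 30.8 and 28.1 CPM. It was 2.12 (SE 0.43) in MII oocytes, 2.97 (SE 0.45) in 2-cell embryos, 2.38 (SE 0.43) at the 8-cell stage and 2.83 (SE 0.43) in morulae. In blastocysts, with 282 and 314 CPM in the pools, it was 5.31 (SE 0.48), or 39.7-fold. The largest adjusted p of the 6 was 0.000208, in MII oocytes (edgeR). EIF4EBP2 was higher in the polysomes of morulae (3.02, SE 1.11, adjusted p = 0.0263, edgeR), a call lost in 4 of 5 refits without a replicate.

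The scaffolds differed among themselves in the same contrast. EIF4G3 was lower in polysome pools of GV oocytes (−1.53), MII oocytes (−2.48), 2-cell embryos (−1.72), 8-cell embryos (−4.48, SE 0.71, adjusted p = 1.14e-05, edgeR) and blastocysts (−1.71). The adjusted p in GV oocytes was 0.0473 (edgeR), and that call was lost in each of 5 refits without a replicate. The blastocyst call was lost in 3 of 5, and the 2-cell call without 2-cell gradient B (−1.37). EIF4G2 was higher in polysomes of GV oocytes, at 529 and 519 CPM against 236 to 276 CPM in transcriptomes (log2 1.06, SE 0.29, adjusted p = 0.00547, edgeR). It was lower in MII oocytes (−0.82), 2-cell embryos (−0.91) and blastocysts (−2.08, SE 0.32, adjusted p = 1.71e-05, edgeR). The MII value was −0.36 and did not pass without gradient B, and the 2-cell call was lost in 2 of 5 refits. EIF4G1 passed in 2-cell embryos, at 34.8 and 37.7 CPM in the pools against 15.1 to 16.9 CPM (log2 1.21, SE 0.43, adjusted p = 0.0214, edgeR), a call lost in 4 of 5 refits. EIF4E2 passed in GV oocytes (−1.08, SE 0.33, adjusted p = 0.0113, edgeR), and not without GV gradient B (−0.97, adjusted p = 0.109, edgeR) or with F9 and F10 alone as the pool. In all, 5 members passed in GV oocytes (39.8% of all genes), 4 in MII oocytes (57.5%), 5 in 2-cell embryos (51%), 3 at the 8-cell stage (59.1%), 3 in morulae (51.7%) and 4 in blastocysts (40.1%).

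**Figure D3:**
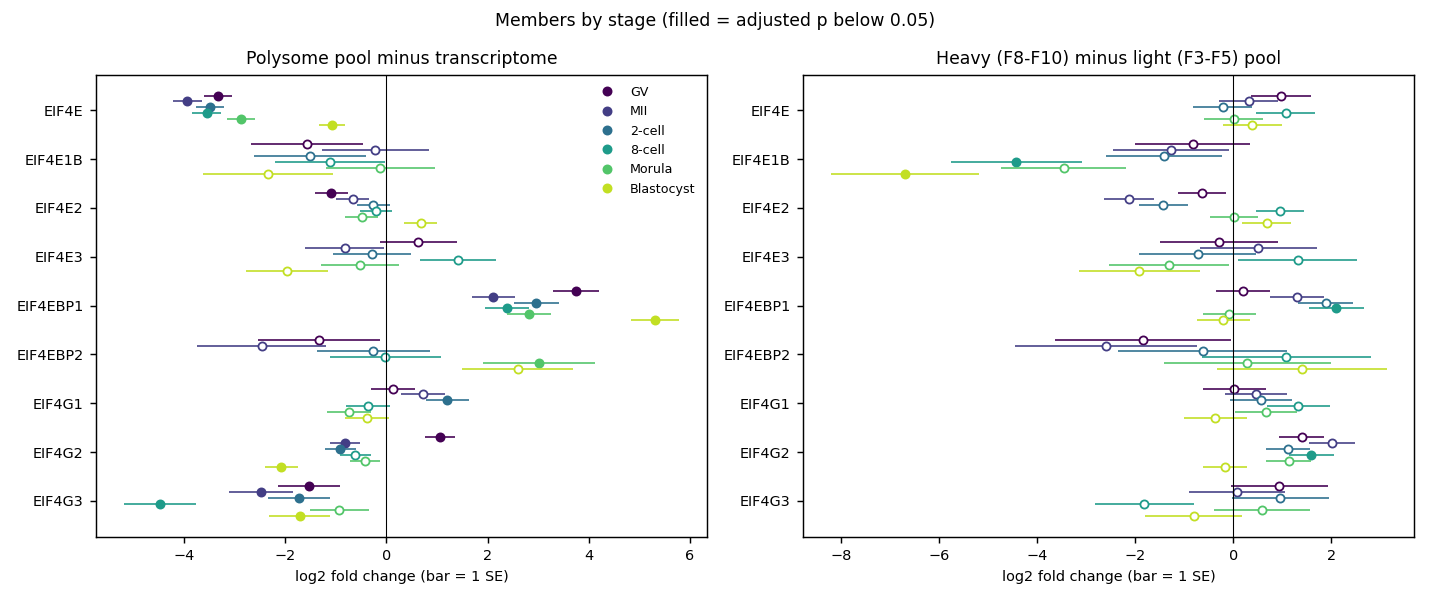
Log2 fold change of each of the 9 genes at the 6 stages, in colours from GV (dark) to blastocyst (light), for polysome pools against transcriptome (left) and for F8 to F10 against F3 to F5 (right). Bars are 1 SE, and filled points passed an adjusted p of 0.05 in edgeR. On the left EIF4E lies below 0 and EIF4EBP1 above 0 at all 6 stages, and on the right EIF4E1B lies below 0 at all 6.

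The other fractions were set against the transcriptome in the same way. EIF4E lay below the lowest transcriptome of its stage in all 120 fraction libraries, free RNA and monosomes included, which held for 2.03% of all tested genes. In GV oocytes, for instance, it was between 23.9 and 242.6 CPM over the 20 fraction libraries. The GV transcriptomes lay between 2014 and 2765 CPM in the scaling of single libraries used here. EIF4EBP1 was above the highest transcriptome in 104 of 120 fraction libraries, a count reached by 7.08% of all genes. EIF4G2 and EIF4G3 were each below the lowest in 113, which 14.8% of all genes reached. EIF4E1B had 62 fraction libraries below its transcriptomes and 46 above. The difference of EIF4E and EIF4EBP1 between polysomes and transcriptome is thus also a difference between gradient libraries and whole-cell libraries, and these cannot be told apart within this contrast. The same limit holds where EIF4G2 and EIF4G3 were lower in polysomes. EIF4G2 was below the lowest transcriptome in all 20 fraction libraries of MII oocytes, 2-cell embryos and blastocysts. EIF4G3 was so in all 20 of GV oocytes, MII oocytes and 2-cell embryos, in 17 of 8-cell embryos and in 18 of blastocysts. The comparison of fractions within a gradient, below, does not use the transcriptomes.

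How far the polysome difference itself changed between stages was tested as an interaction. From GV to MII 1 member passed, against 10.6% of all genes, and it was EIF4G2 (−1.88, SE 0.42, adjusted p = 0.00457, edgeR). None passed from MII to 2-cell, against 1.81% of all genes, with 0 unadjusted p-values under 0.05 and 0 calls by DESeq2. EIF4G3 passed from 2-cell to 8-cell (−2.76, SE 0.83, adjusted p = 0.0309, edgeR, against 12.2% of all genes) and in the opposite direction from 8-cell to morula (3.55, SE 0.84, adjusted p = 0.00713, edgeR, against 12.5%). The first of these was lost in 6 of 10 refits without a replicate and the second without morula gradient A, and both with F9 and F10 alone as the pool. From morula to blastocyst 3 members passed, against 12.3% of all genes. EIF4E changed by 1.80 (SE 0.34, adjusted p = 0.00164, edgeR), in that its transcriptome level fell while its polysome pools were at 143 ± 43.1 and 144 ± 22.6 CPM (SD, n = 2) at both stages. EIF4EBP1 changed by 2.48 (SE 0.63, adjusted p = 0.0123, edgeR) and EIF4G2 by −1.66 (SE 0.42, adjusted p = 0.0132, edgeR). The mean EIF4EBP1 transcriptome level went from 35.3 to 7.60 CPM and that of its polysome pools from 250 to 298 CPM. In the monosome pools (F3 to F5) of these stages EIF4E was at means of 132 and 107 CPM and EIF4EBP1 at 257 and 335 CPM. Whether the changes of EIF4E and EIF4EBP1 are particular to polysomes was not tested.

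Within the gradients EIF4E1B and EIF4E had different profiles. EIF4E1B was highest in 1 of the fractions F1 to F5 in 11 of 12 gradients and lower in the polysomes at every stage. In morulae and blastocysts F1 held at most 0.230 CPM, and the highest values were in F2 to F5. These F1 libraries had only between 1229382 and 5198616 expected counts. Before TMM scaling 3 counts in them stand for 0.577 to 2.44 CPM, so values under that are not resolved. In GV gradient A it was 133 CPM in F1, 76.7 CPM in F3 and 27.2 CPM in F10, and in gradient B 205 CPM, 82.9 CPM and 37.2 CPM. In 8-cell embryos it was 354 CPM in F3 and 0.240 CPM in F10 of gradient A, and 422 CPM and 23.6 CPM in gradient B. Both gradients of a stage gave the same direction. Across F3 to F10 Spearman's rho of EIF4E1B was negative in all 12 gradients, from −0.98 to −0.26 with a median of −0.92 (8 fractions per gradient, neighbours of which share material). The value nearest 0 was that of MII gradient B, where F10 held 148 CPM while F7 to F9 held 27.3 to 39.6 CPM. That F10 is the library that stood apart among the MII fractions, with 9 counts of EIF4E and 1047 of EIF4E1B.

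EIF4E was highest in 1 of the fractions F6 to F10 in 9 of 12 gradients. In GV oocytes it went from 65.7 CPM in F3 to 231 CPM in F10 of gradient A and from 125 to 243 CPM in gradient B. Its rho was positive in 8 gradients and negative in 4, from −0.40 to 0.71. In 8-cell embryos and morulae single fractions of EIF4E dropped to 0.111 CPM (F6, gradient A) and 0.291 CPM (F9, gradient A). The morula library was the one with 5714 genes detected.

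**Figure D4:**
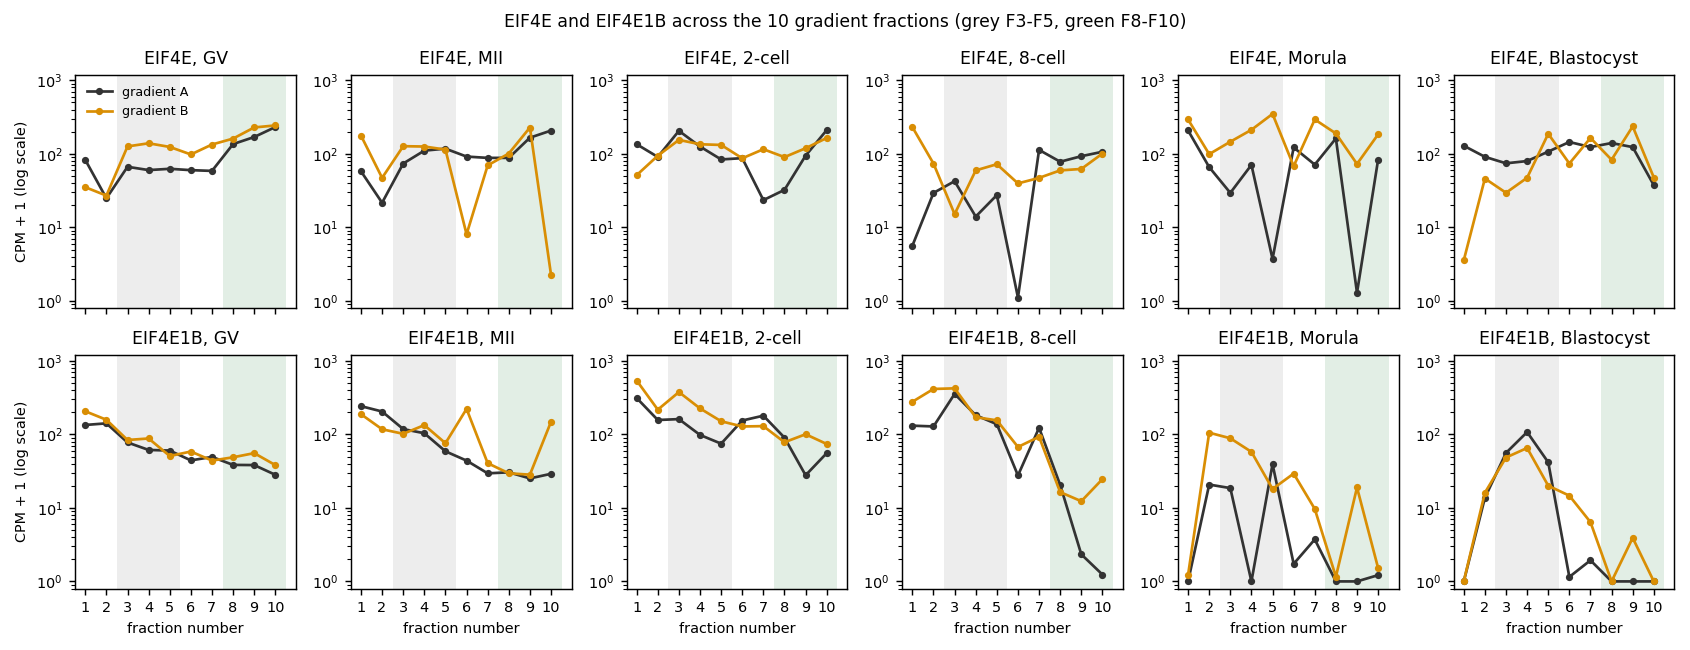
EIF4E (upper row) and EIF4E1B (lower row) in CPM + 1 on a log axis across fractions F1 to F10 at the 6 stages, with gradient A in black and gradient B in orange. Grey marks F3 to F5 and green F8 to F10. EIF4E1B is lower in F10 than in F3 in 11 of 12 gradients, for example 354 CPM in F3 and 0.240 CPM in F10 of 8-cell gradient A, the exception being MII gradient B with 101 and 148 CPM, while EIF4E in GV oocytes ends at 231 and 243 CPM in F10.

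For the test, F8 to F10 were summed as a heavy pool and F3 to F5 as a light pool of each gradient. EIF4E1B was lower in the heavy than in the light pool of all 12 gradients, which held for 0.733% of the 14873 genes tested. The light pools of GV oocytes held 64.8 and 73.1 CPM and the heavy pools 32.2 and 45.4 CPM, and in 2-cell embryos 105 and 249.7 against 52.3 and 81.5 CPM. In 8-cell embryos the light pools held 255 and 241 CPM and the heavy pools 6.94 and 16.1 CPM. In blastocysts they held 82.3 and 57.5 CPM against 0 and 1.34 CPM, where no count in heavy pool A allows at most 0.126 CPM. The gap was thus wider from the 8-cell stage on than before it, a difference between stages that was not tested.

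Single stages with 2 gradients each gave few calls. EIF4E1B was lower in the heavy pools of 8-cell embryos (log2 −4.43, SE 1.34, adjusted p = 0.0459, edgeR), and 9.35% of all genes passed there. With the gradient as a block, which pairs the pools of a tube, its adjusted p was 0.0652 (edgeR), and the call was also lost without gradient A (−3.90), without gradient B (−5.20) and with F3 to F7 as the light pool. In blastocysts the fitted value was −6.70 (SE 1.51, adjusted p = 0.0343, and 0.0604 with the block, edgeR), and 1.43% of all genes passed. That call was lost without gradient A (−5.42) and with F3 to F7 as the light pool. The fit rests on a pool without counts and is no bound. Averaged over the 6 stages in the same fit, an average added after the data had been seen, EIF4E1B fell by 3.02 (SE 0.51, adjusted p = 0.00122, edgeR), an 8.09-fold difference. Its adjusted p was 0.00485 with the gradient as a block and 0.00118 without F10 of MII gradient B (edgeR), and 12.5% of all genes passed this average. EIF4E differed by 0.42 (SE 0.25, adjusted p = 0.318, edgeR) and was higher in the heavy pool of 9 gradients, a count reached by 13.3% of all genes.

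The EIF4E1B to EIF4E ratio put the pair into a single value per pool. It was lower in F8 to F10 than in F3 to F5 of the same gradient in 12 of 12 gradients, with a mean log2 difference of −3.39 and single differences from −6.65 to −0.79. An exact permutation test that swapped heavy and light within gradients gave p = 0.000488 (two-sided), the smallest that 4096 assignments allow. This test was added after the data had been seen. The difference was −0.79 and −1.38 in the 2-cell gradients and −6.53 and −5.24 in the blastocyst gradients. Against the transcriptome the ratio was higher in polysome pools, by 2.05 on average over the stages (exact permutation within stages, two-sided, p = 7e-05). The light pools were above the transcriptome too, with mean ratios of −0.36 in GV oocytes and 2.67 at the 8-cell stage against transcriptome means of −4.00 and −5.29. In blastocysts the polysome and transcriptome means were −6.55 and −6.54. EIF4E1B held 0 and 1.36 CPM in the polysome pools there and 0.621 to 9.41 CPM in the transcriptomes. These means and the blastocyst differences above therefore depend on the added 1 CPM. With 0.1 CPM added instead, the mean differences over the stages were −3.97 (heavy against light) and 1.70 (polysomes against transcriptome). With Benjamini-Hochberg adjustment over the 3 tests of the ratio, the added one included, the p-values of the exact permutation tests were 0.00222 (late against early), 0.000732 (heavy against light) and 0.00021 (polysomes against transcriptome).

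**Figure D5:**
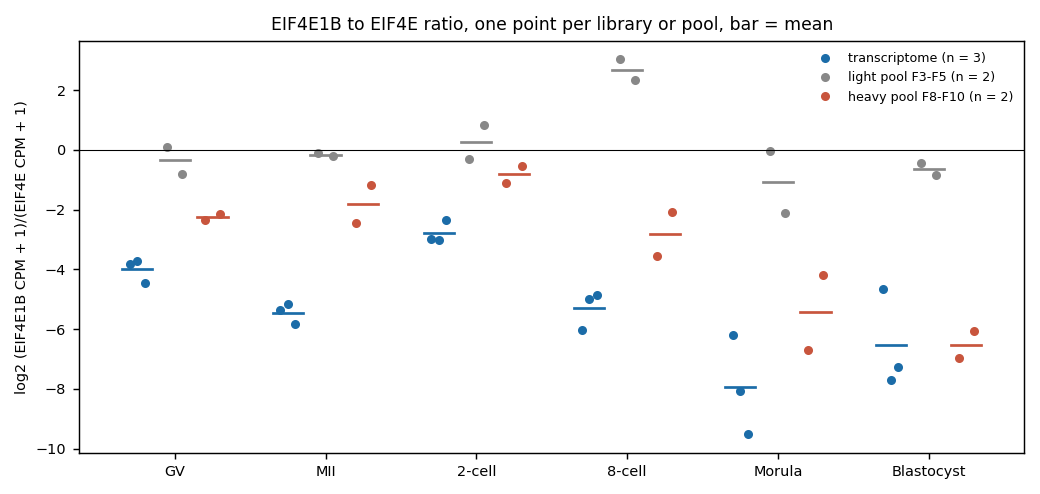
Log2 ratio of EIF4E1B to EIF4E, each as CPM + 1, at the 6 stages. Blue points are the 3 transcriptomes, grey points the light pools (F3 to F5) and red points the heavy pools (F8 to F10) of the 2 gradients, with bars as means. At every stage the grey mean lies above the red one, furthest apart at the late stages, for example −0.63 against −6.52 in blastocysts. There the heavy pools held 0 and 1.34 CPM of EIF4E1B, so the red values depend on the added 1 CPM.

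EIF4G2 had the most gradients with a higher heavy pool of the 9 genes. In GV oocytes it was 148 and 219 CPM in the light and 488 and 477 CPM in the heavy pools, and in MII oocytes 82.7 and 77.8 against 450.5 and 196 CPM. The same order held in 8-cell embryos, with 164 and 266 against 561 and 735 CPM, but not in blastocysts, with 382 and 402 against 317 and 385 CPM. EIF4G2 was higher in the heavy pool of 10 gradients, the exceptions being those of blastocysts, and 7.21% of all genes were higher in at least 10. Over the 6 stages it rose by 1.18 on the log2 scale (SE 0.19, adjusted p = 0.000681, and 0.00463 with the gradient block, edgeR). The 8-cell value was 1.59 (adjusted p = 0.0385, and 0.0528 with the gradient block, edgeR), a call lost without either 8-cell gradient and with F3 to F7 as the light pool.

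EIF4EBP1 was higher in F1 and F2, taken as a mean, than in F3 to F5 in the gradients of the first 3 stages. In GV gradient B it was 177 CPM in F1, and the mean over F3 to F5 was 14.3 CPM and over F8 to F10 26.3 CPM. In GV gradient A the order of the last pair was the other way, with 34.5 and 29.9 CPM. In 2-cell embryos the light pools held 4.15 and 4.12 CPM and the heavy pools 12.9 and 17.7 CPM, and at the 8-cell stage 41.1 and 49.7 against 255 and 135 CPM. The 8-cell difference was 2.10 (SE 0.57, adjusted p = 0.0287, edgeR). It was 1.45 without gradient A (adjusted p = 0.316), 2.64 without gradient B (adjusted p = 0.0549) and 1.03 with F3 to F7 as the light pool (adjusted p = 0.167), none of which passed (edgeR). The average over stages was 0.87 (SE 0.22, adjusted p = 0.017, edgeR). It lost its call in 5 of 12 refits without a gradient, with a lowest value of 0.76 without 8-cell gradient A. With F3 to F7 as the light pool the average was 0.49 and did not pass (adjusted p = 0.119, edgeR).

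EIF4E2 had negative log2 differences at the first 3 stages and positive ones at the 8-cell stage and in blastocysts, and none passed. In morulae the gradients went in opposite directions, with 99.6 and 95.0 CPM in the light and 129.9 and 65.7 CPM in the heavy pools. The morula means were 97.3 and 97.8 CPM. Light pools of MII oocytes held 90.1 and 121 CPM and heavy pools 26.2 and 21.8 CPM (log2 −2.14, SE 0.51, adjusted p = 0.0771, edgeR). In 8-cell embryos the light pools held 57.5 and 37.9 CPM and the heavy pools 76.9 and 108 CPM (0.96, SE 0.49, adjusted p = 0.206, edgeR). EIF4E3, EIF4EBP2, EIF4G1 and EIF4G3 did not pass at any stage, and their averages over stages lay between −0.40 and 0.45 on the log2 scale.

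Counted per stage, no member passed this contrast in GV oocytes (0.498% of all genes), MII oocytes (0.437%), 2-cell embryos (0%) or morulae (1.59%) by edgeR. At these stages 1, 3, 3 and 2 members had an unadjusted p under 0.05, and DESeq2 called 1, 2, 0 and 1. A permutation test of Spearman's rho over F3 to F10 of both gradients, adjusted over all genes, called 4, 4, 4 and 0 members. That test takes the fractions of a gradient as independent, although neighbours share material. Its share over all genes and that of DESeq2 are not given, so the member counts of either test cannot be read against a background. At the 8-cell stage 3 passed the edgeR test and in blastocysts 1 did.

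The partners of these genes were taken as 4 lists with 38 genes in all, of which 37 could be tested. Late against early, 36.4% of all genes were higher and 34.1% lower, the shares to read the list counts against. Of 5 eIF4F partners, 2 were higher and 0 lower in late than in early transcriptomes by edgeR, with EIF4B, which stimulates the helicase, in front (2.60, SE 0.20, adjusted p = 3.16e-11). Their median log2 change was 0.35, against 0.15 over all genes. Of 13 tested genes of eIF4E-binding and repressor complexes, 4 were higher and 6 lower in the same contrast, from EIF4EBP3, another 4E-BP (2.86, adjusted p = 4.48e-05, edgeR), to the oocyte RNA-binding protein gene ZAR1 (−6.98, adjusted p = 3.31e-12, edgeR). The median of this list was −0.07. Of 13 genes of mTOR and MNK signalling, 6 were higher and 5 lower, with RPS6KB2, an S6 kinase, at 5.44 (adjusted p = 1.01e-11) and MKNK1, a kinase of eIF4E, at −2.26 (adjusted p = 3e-10), both by edgeR, and a median of −0.29. Of 6 poly(A) binding genes, 4 were higher and 2 lower, from PABPC1 (3.76, adjusted p = 4.71e-15, edgeR) to PAIP1 (−5.58, adjusted p = 2.13e-15, edgeR), with a median of 1.70.

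Between heavy and light pools, averaged over stages, 2 of the 37 genes were higher and 6 lower, against 6.42% and 6.11% of all genes. EIF4A2, a helicase of eIF4F, rose by 0.61 (SE 0.18, adjusted p = 0.032, edgeR) and EIF4B fell by 0.71 (SE 0.22, adjusted p = 0.0387, edgeR). ZAR1 was lower in heavy pools (−1.82, SE 0.40, adjusted p = 0.00647, edgeR). RHEB, the GTPase that activates mTOR, was higher (0.87, SE 0.22, adjusted p = 0.015, edgeR), and TSC1, part of the complex that inhibits RHEB, lower (−1.26, SE 0.19, adjusted p = 0.00047, edgeR). None of the 6 poly(A) binding genes passed. The list medians were −0.17 for eIF4F partners, −0.40 for repressor complexes, −0.03 for mTOR and MNK signalling and 0.35 for poly(A) binding, against −0.06 over all genes.

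Against the transcriptome, polysome pools of GV oocytes had 14 of the 37 partner genes higher and 10 lower, against 22.2% and 17.7% of all genes. Those of 8-cell embryos had 17 higher and 10 lower, against 28% and 31%, and in blastocysts 8 were higher and 11 lower, against 20% and 20.1%. The mTOR and MNK list had 9 of 13 genes higher in GV oocytes, 10 at the 8-cell stage and 7 in blastocysts, with medians of 2.22, 3.44 and 1.52 against 0, −0.26 and −0.08 over all genes. Of the eIF4F partners 3 of 5 were lower at each of these 3 stages, led in GV oocytes by EIF4A1, the main helicase of the complex (−3.77, SE 0.41, adjusted p = 1.14e-07, edgeR). For these lists too, polysomes and gradient libraries as such cannot be told apart within this contrast. Between heavy and light pools the mTOR and MNK medians were −0.90 in GV oocytes, −1.23 at the 8-cell stage and 0.40 in blastocysts. Those of the eIF4F partners were 0.50, 1.01 and −0.31 at the same stages.

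By Pearson's r of mean log2(CPM + 1) over the 12 groups of stage and library type, the genes most like EIF4E1B were CD58 (0.977), ZMAT4 (0.973), LHFPL3 (0.971), JAZF1 (0.969) and MAPRE2 (0.967). Those most like EIF4E were LIAS (0.996), VTA1 (0.988), EXOSC8 (0.977), CALM (0.977) and EAPP (0.976). The 12 groups share stages and, for polysomes, gradients, so these values are descriptions. EIF4E1B and EIF4E had r = 0.446 with each other, and among the members EIF4G3 was most like EIF4E (0.811).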

How the data were processed

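The authors estimated expected counts per gene with Salmon on the bovine Ensembl annotation and deposited them unnormalized for 120 fraction and 18 transcriptome libraries. The submitters' processing notes name UMD3.1, and the methods name another build, so no coordinates are given. The deposited expected counts were rounded to whole numbers, and 11.7% had not been whole. No mature sequence, transcript length or genome was used. Tests used edgeR 4.0.16 (R 4.3.3): filterByExpr, TMM, quasi-likelihood F tests and Benjamini-Hochberg adjustment over all genes at 0.05, in a model of 18 transcriptomes and 12 polysome pools (14612 genes) and a model of 24 heavy and light pools (14873 genes). Both steps were tested on simulated data. DESeq2 1.42.0 was an alternative. Ratios used exact permutation tests (scipy 1.17.1, numpy 2.4.6), which had 48620, 1000000 and 4096 assignments. The study calls the replicates of a fraction biological. The labels do not say whether samples came from separate collections, so p-values measure the spread between these samples. Members and lists were chosen with earlier results of these data known. All 9 members were named, with the gene of largest fold per direction of a list among those that passed, and the 5 genes most like EIF4E1B and EIF4E. The heavy and light pools of a gradient are paired because they come from the same tube. Levels of 0 and values near 3 counts cover counting error only.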

Additional observations from a re-analysis of the deposited data

Results flagged for a closer look

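In 6 cases the difference between polysome pools and transcriptome changed between consecutive stages by a test of that change itself (interaction term, edgeR). For EIF4G2 it changed by −1.88 on the log2 scale from GV to MII, and for EIF4G3 by −2.76 from 2-cell to 8-cell and by 3.55 from 8-cell to morula. From morula to blastocyst it changed by 1.80 for EIF4E, by 2.48 for EIF4EBP1 and by −1.66 for EIF4G2. Leaving out replicates in turn, the calls of EIF4E and EIF4EBP1 and the GV to MII call of EIF4G2 were kept in all refits, EIF4G3 lost its 2-cell to 8-cell call in 6 of 10 refits and its 8-cell to morula call in 1 of 10 (without morula gradient A, 2.43), and EIF4G2 lost its blastocyst call in 2 of 10. With F9 and F10 alone as the pool, the EIF4G3 values were −2.30 and 1.17, and neither passed. The EIF4G3 polysome pools of 8-cell embryos rested on 0.410 and 4.09 CPM. The part of single gradients in these values was not tested further, nor whether the changes of EIF4E and EIF4EBP1 are particular to polysomes.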

How the results depend on the processing

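The main tests gave 16 member calls between consecutive transcriptomes, 8 late against early, 9 between consecutive polysome pools, 30 for polysomes against transcriptome with its interactions, 4 for heavy against light pools and 3 for their average over stages. With F9 and F10 as the polysome pool, calls between consecutive polysome pools went from 9 to 3. For heavy against light pools the 4 calls became 8 with DESeq2 and 16 with the Spearman trend, which takes fractions of a gradient as independent. They became 1 with the gradient as replicate block and 0 with F3 to F7 as the light pool. Leaving out each gradient gave between 1 and 5. The 16 transcriptome calls were 24 with the 18 transcriptomes alone and 21 with DESeq2, both with all 16 kept. Shares over all genes are not given for the alternative settings, so their counts cannot be read against a background. Over refits without a replicate the other counts were 13 to 16, 7 to 8, 7 to 10, 27 to 38 and 2 to 4, in the order above. Both reversed values were those of EIF4E3 without 8-cell gradient A (−0.62 from 2-cell to 8-cell and 0.40 from 8-cell to morula). Over the refits without a replicate they ranged from −0.62 to 3.099 and from −3.74 to 0.40. Of 70 called values, 43 were kept in all refits without a replicate, 25 lost the call in at least 1 and 2 reversed. The ratio of EIF4E1B to EIF4E kept its direction and side of the threshold in all alternatives: −2.75 to −2.14 (late against early), 1.84 to 2.26 (polysomes against transcriptome) and −3.77 to −3.01 (heavy against light) without single libraries.

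Letters did not pair transcriptomes with gradients: deviations of the same letter had r between −0.07 and 0.04, with 0 of 12 above 0.1. With the letter as a replicate block 61 of 63 calls were kept, the ratio of polysomes to transcriptome was 1.86 (exact permutation, p = 0.00684) and late against early −2.51 (exact permutation, p = 0.00425). Low counts of EIF4E1B after the 8-cell stage, 2 gradients per stage and shared reads limit the precision.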
